A study of Homo sapiens with 6 samples.

Results

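The 60 genes described here encode nucleolar factors that build the small and the large ribosomal subunit. They are the rows of the deposited gene table whose symbol is on a list of assembly factors, with the DEAD- and DEAH-box helicases left out. The list was chosen with earlier results of these data known. All 60 were found among the 29176 genes of the table and among the 18022 genes that had enough counts to be tested. Expression was measured by RNA sequencing of total RNA from HaCaT cells, an established line of immortalized human keratinocytes. All 6 samples had received M5, the stimulus that the series title names for its cell culture model of psoriasis, and all were taken at 48 hours. The control group (si-NC+M5, 3 samples) also received a control small interfering RNA, and the knockdown group (si-eIF4E+M5, 3 samples) received one directed at eIF4E, the cap-binding factor of translation initiation. Both groups were thus stimulated, and no unstimulated or untransfected sample was analysed here. The labels do not list the components of M5, and nothing in them says whether the replicates were grown as separate cultures. The p-values therefore measure only the variation among these 6 samples, and that variation may be technical.

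Ribosome assembly begins in the nucleolus, where RNA polymerase I makes a long precursor that holds the 18S, 5.8S and 28S rRNAs. Small nucleolar ribonucleoproteins (snoRNPs) guide methylation and pseudouridylation of this precursor. The UtpA and UtpB complexes and the U3 snoRNP fold its first part into the small-subunit processome, from which the pre-40S particle is released, while other factors assemble, trim and export the pre-60S particle. Growing and stimulated cells raise the expression of many of these genes, and the transcription factor MYC is known to bind a large share of their promoters, often at the E-box CACGTG.

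EIF4E itself was lower in every knockdown sample. Its level, in CPM (counts scaled to library size by the trimmed mean of M values), was 50.9, 48.2 and 51.2 in the control samples and 21.0, 18.4 and 23.5 in the knockdown samples, so that 41.9% of the control level was left (95% CI 36.4 to 48.2%, log2 fold change -1.25 ± 0.09 SE, adjusted p = 7.2e-05, quasi-likelihood test of edgeR, Benjamini-Hochberg adjusted). MYC was measured at 432, 471 and 407 CPM in the controls and at 238, 265 and 246 CPM in the knockdown samples, 57.2% of the control level (95% CI 51.4 to 63.7%, adjusted p = 1.6e-04). Libraries held between 71044961 and 74246501 counts. The 5 keratinocyte markers looked for were all present, with mean FPKM (fragments scaled to gene length and library size) of 36.5 to 723. Their summed FPKM was 1444 to 1534 in the controls and 1642 to 1787 in the knockdown samples. The markers did not move together. KRT5 was at 388 to 442 in the controls and 568 to 641 after knockdown, and PERP at 56.6 to 65.2 and 92.4 to 97.9. For KRT14, TP63 and KRT6A the groups overlapped. Markers of fibroblasts, leukocytes, endothelial cells and melanocytes stayed at a mean FPKM of 0.58 or lower each. The summed FPKM of the 4 fibroblast markers with a row was 0.33 to 0.46 in the controls and 0.77 to 1.09 in the knockdown samples. Among these, COL1A1 and COL3A1 were higher in every knockdown sample, while COL1A2 and PDGFRA overlapped. The sum of the 3 leukocyte markers was 0.53 to 0.75 against 0.80 to 1.32. The part of these differences in the results below was not tested.

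Most of the 60 ribosome assembly factors were lower after eIF4E knockdown, by small amounts. Since the list was chosen with earlier results of these data known, the shares below describe it and do not test it. Of the 60 genes, 26 (43.3%) were called lower at an adjusted p under 0.05 and 0 were called higher, while 8.40% of all tested genes were called lower and 7.44% higher. No member was higher at an unadjusted p under 0.05 in edgeR (0 genes), and DESeq2 also called 0 higher. The fitted log2 fold change was below 0 for 57 of the 60, with a median of -0.21 (86.6% of the control level), against 50.9% of all tested genes below 0 and a median of -0.01. In 36 members every knockdown sample lay below every control sample, which was the case for 17.4% of tested genes. Genes of higher level were called lower more often, so the count was also read at a mean FPKM of at least 5, where 21 of 50 members were called lower against 14.90% of all such genes. The called falls ran from -0.63 for WDR3 to -0.21 for RRP1B on the log2 scale, that is, from 64.5% to 86.6% of the control level, and 4 of them reached -0.5 or lower (WDR3, PWP2, NOP56 and WDR36). The count was 14 without replicate 2 of si-NC+M5 and 15 without replicate 1 of si-eIF4E+M5, where 4.67% and 5.38% of all tested genes were called lower. It was 12 at an adjusted p under 0.01, where 4.03% of all tested genes were called lower.

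**Figure D1:**
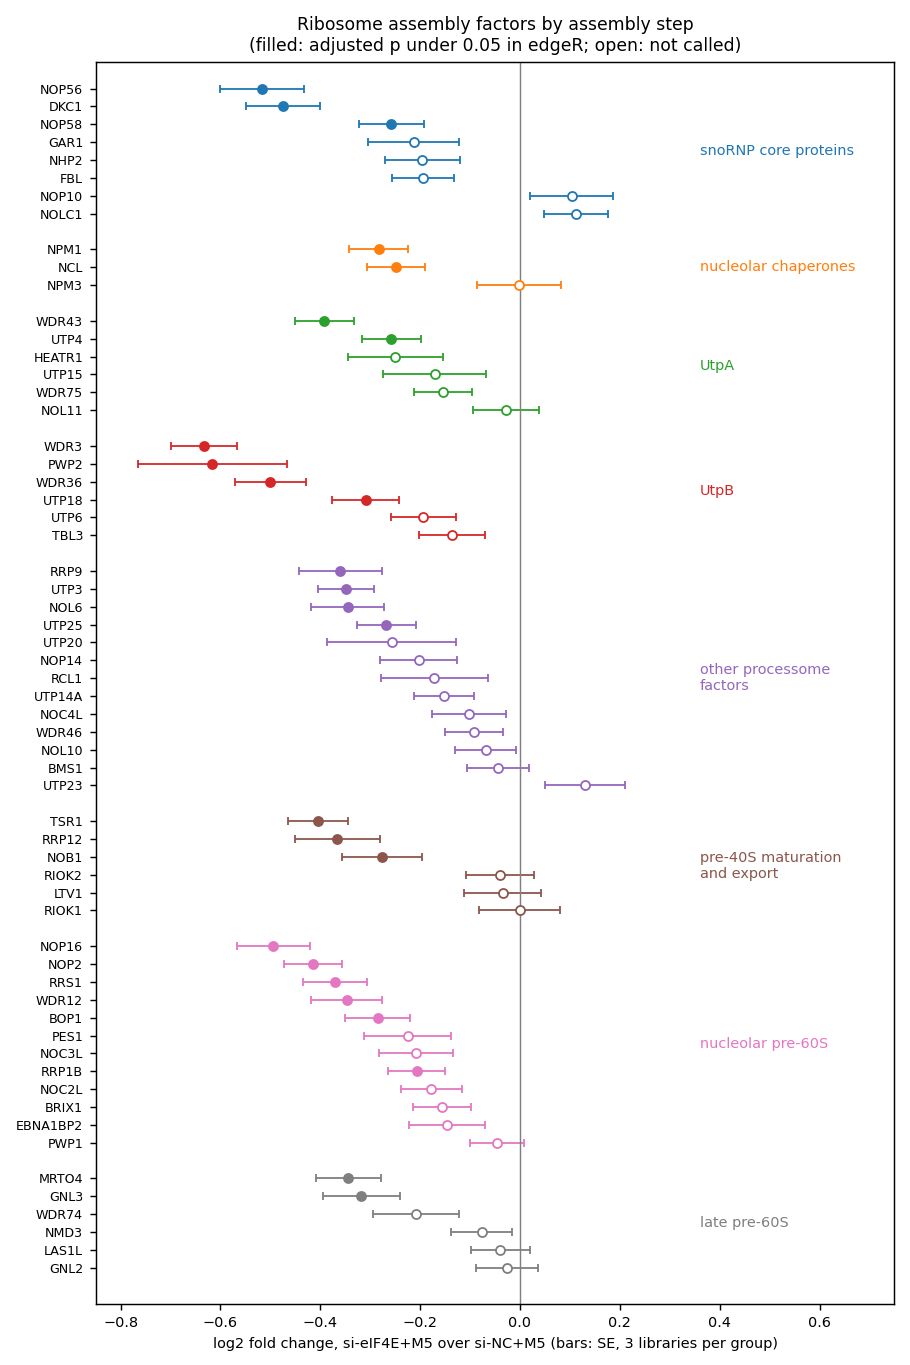
Log2 fold change of each of the 60 genes (x axis, si-eIF4E+M5 over si-NC+M5, bars are the SE, 3 samples per group), sorted within 8 assembly steps, with filled points for the 26 genes called lower. Nearly all points lie left of 0, and the farthest ones, WDR3 at -0.63 and PWP2 at -0.62, belong to UtpB.

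The 6 samples differed in how far the factors had moved. Relative to the mean of the controls, the median log2 level over the 60 genes was -0.003, 0.04 and -0.02 in control samples 1, 2 and 3, and -0.28, -0.15 and -0.23 in knockdown samples 1, 2 and 3. All knockdown medians lay below all control medians, and knockdown sample 2 lay nearest to the controls. The fall was deepest in UtpB, whose median stood at -0.41, -0.36 and -0.39 in the knockdown samples. The late pre-60S factors were at -0.23, -0.01 and -0.19 and the other processome factors at -0.20, -0.11 and -0.19. The differences between steps were not tested. These values are shares of the reads of each library, so a change in total RNA per cell, or in the number of cells, cannot be told apart from them.

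**Figure D2:**
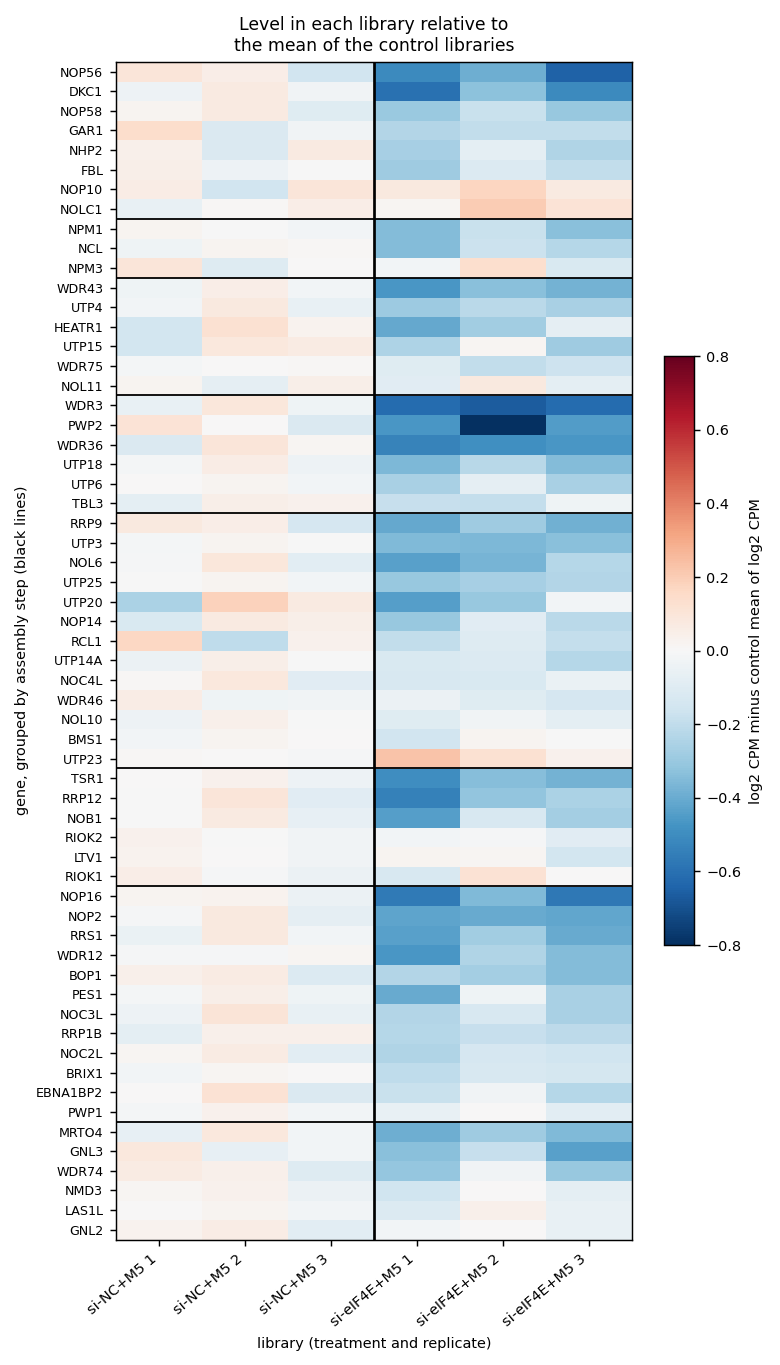
Level of each gene (rows, grouped by assembly step between black lines) in each of the 6 samples (columns), as log2 CPM minus the mean log2 CPM of the 3 controls, blue for lower and red for higher. The 3 knockdown columns are mostly blue, palest in sample 2, and UTP23, NOP10 and NOLC1 are the rows above the control mean in all 3 knockdown samples.

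Promoter sequence is shown for genes that carry the E-box at their start, because this letter sequence is more frequent in these promoters than in others while the fall is seen with and without it. RefSeq promoter sequences (build GRCh38.p14, from 250 bases before to 50 bases after the gene start) were matched for 52 of the 60 genes. The first entry of each gene symbol was used, so the start is that of this entry. For 43 of the 52, a stretch after the start was found in a transcript of the gene in the GENCODE v29 annotation. CACGTG, which reads alike on both strands, occurred in 22 of the 52 (42.3%) and in 1056 of 10597 promoters of tested protein-coding genes (9.97%). In 19 of the 52 (36.5%) it began within 50 bases of the start, a distance chosen after the positions were seen, against 3.9% of all. The windows below run from 60 bases before to 30 bases after the start, in the direction of transcription, with CACGTG in capitals. They are examples and do not show how often each kind occurs. Of the 19 genes, 9 were called lower and 6 of these are shown. NOP10 (log2 fold change 0.10) and GNL2 (-0.03) are shown from those not called, and had the highest fold changes of the 19. Other genes not called lay lower, such as UTP20 (-0.26) and PES1 (-0.22). The first 6 belong to genes called lower:
PWP2 (chr21:44107339-44107428, plus strand): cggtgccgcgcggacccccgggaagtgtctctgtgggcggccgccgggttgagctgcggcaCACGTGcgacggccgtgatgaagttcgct
UTP18 (chr17:51260486-51260575, plus strand): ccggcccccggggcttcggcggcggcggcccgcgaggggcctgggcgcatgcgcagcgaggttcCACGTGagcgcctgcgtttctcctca
WDR43 (chr2:28894607-28894696, plus strand): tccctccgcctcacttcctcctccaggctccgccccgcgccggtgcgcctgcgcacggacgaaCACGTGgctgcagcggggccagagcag
RRP9 (chr3:51941875-51941964, minus strand): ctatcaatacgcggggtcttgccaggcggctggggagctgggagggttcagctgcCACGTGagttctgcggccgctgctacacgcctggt
NOL6 (chr9:33473895-33473984, minus strand): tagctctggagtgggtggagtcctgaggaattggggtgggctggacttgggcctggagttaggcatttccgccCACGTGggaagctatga
MRTO4 (chr1:19251745-19251834, plus strand): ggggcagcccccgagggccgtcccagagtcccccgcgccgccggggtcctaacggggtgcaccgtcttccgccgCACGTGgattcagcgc

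The next windows come from NOP10 and GNL2, which carry the same letters at the start and were not called, and from WDR3, the factor with the farthest fall, whose whole promoter entry holds no CACGTG:
NOP10 (chr15:34343107-34343196, minus strand): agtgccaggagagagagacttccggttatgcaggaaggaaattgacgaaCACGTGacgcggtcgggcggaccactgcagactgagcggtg
GNL2 (chr1:37595908-37595997, minus strand): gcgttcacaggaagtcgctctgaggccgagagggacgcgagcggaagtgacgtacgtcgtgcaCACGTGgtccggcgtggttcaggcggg
WDR3 (chr1:117929679-117929768, plus strand): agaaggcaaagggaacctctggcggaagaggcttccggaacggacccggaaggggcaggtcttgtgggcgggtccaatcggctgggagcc

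The fall was seen both with and without the E-box. Of the 22 genes with CACGTG, 9 were called lower with a median log2 fold change of -0.22, and of the 30 with a promoter entry and no CACGTG, 12 were called lower with a median of -0.20. Of the 19 with CACGTG within 50 bases of the start, 9 were called lower with a median of -0.26, against 16.7% of the 413 tested protein-coding genes with CACGTG there. Of the 8 genes with no entry, 5 were called lower. None of these differences between groups of members was tested. Among all tested protein-coding genes with CACGTG the median was -0.05 and 13.8% were called lower, against 10.7% of all tested protein-coding genes. The ETS-type sequence CCGGAAG, searched on both strands, occurred in 20 of the 52 promoters (38.5%) and in 18.8% of all. Both sequences were present in 9 promoters. The NRF1-type palindrome, made of GCGCA and its reverse complement TGCGC, occurred in 4 (7.69%), against 2.23% of all. CCGGAAG shares no letters with CACGTG where they lie side by side, and the NRF1-type palindrome can share 1 end base with either. These matches describe letters in a window and show no binding.

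**Figure D3:**
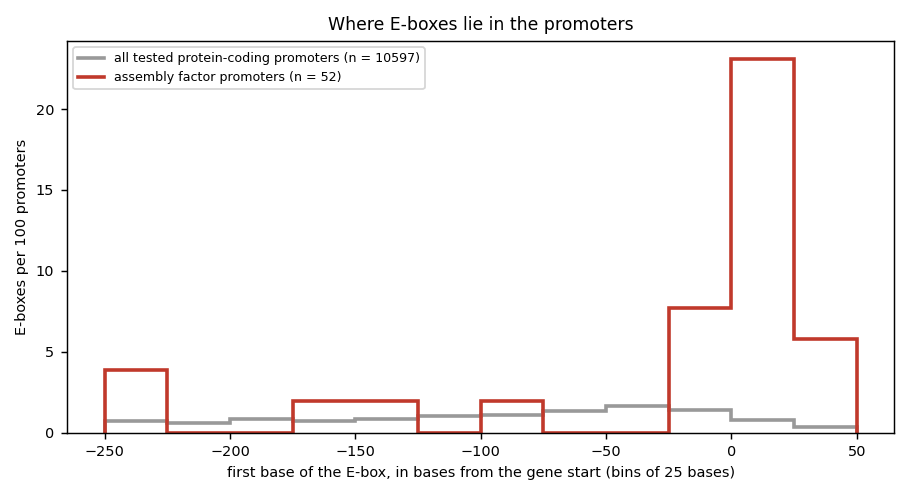
Number of E-boxes per 100 promoters (y axis) by the distance of their first base from the gene start (x axis, bins of 25 bases), for the 52 assembly factor promoters in red and for 10597 promoters of tested protein-coding genes in grey. The red line peaks just after the start, where the grey line stays low.

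The genes of the snoRNP core step ranged from clear falls over smaller ones to no fall. Of 8, 3 were called lower and the median log2 fold change was -0.20. NOP56, a scaffold of the box C/D snoRNPs that methylate rRNA (chr20:2652145-2658393, plus strand, GRCh38), was at 149, 144 and 125 CPM in the controls and at 97.9, 106 and 88.7 CPM in the knockdown samples. The groups did not overlap, and the log2 fold change was -0.52 ± 0.08 (adjusted p = 0.0032). NOP58, its partner in the same particle, fell by 0.26 ± 0.07 (adjusted p = 0.024), and the methyltransferase FBL was at -0.19 ± 0.06 (adjusted p = 0.063). DKC1, the pseudouridine synthase of the box H/ACA snoRNPs (chrX:154762742-154777689, plus strand), was at 164, 178 and 166 CPM in the controls and at 112, 135 and 119 CPM after knockdown. Again every knockdown sample was below every control, with a log2 fold change of -0.47 ± 0.07 (adjusted p = 0.0027). Its partners NHP2 and GAR1 were at -0.20 and -0.21 without a call. The smallest partner, NOP10, had the highest FPKM of the 8 (mean 59.9) and did not fall: it was at 31.8, 27.4 and 32.6 CPM in the controls and at 32.2, 34.4 and 32.1 CPM in the knockdown samples, which overlap (log2 fold change 0.10 ± 0.08, adjusted p = 0.47). NOLC1, a chaperone of snoRNPs, was at 0.11 ± 0.06 (adjusted p = 0.29). The DKC1 to NOP10 ratio, a pair chosen after the values were seen and given without a test, moved by -0.58 on the log2 scale, from a mean of 2.47 in the controls to 1.89. Leaving out any of 4 libraries (replicates 1 and 2 of si-NC+M5, 1 and 3 of si-eIF4E+M5) ended the call of NOP58, with adjusted p up to 0.11.

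The nucleolar chaperones include the most abundant messages of the 60. NPM1, nucleophosmin, which shapes the outer zone of the nucleolus, had a mean FPKM of 224 and was at 1003, 986 and 975 CPM in the controls and at 778, 875 and 782 CPM in the knockdown samples. All knockdown values were below the controls (log2 fold change -0.28 ± 0.06, adjusted p = 0.011). NCL, nucleolin, which binds nascent pre-rRNA, was at 774, 804 and 797 CPM and at 623, 703 and 675 CPM, again without overlap (-0.25 ± 0.06, adjusted p = 0.018). NPM3, a smaller relative of nucleophosmin, was at 40.8, 35.5 and 38.2 CPM in the controls and at 37.6, 41.7 and 35.0 CPM after knockdown, so that the groups overlapped throughout (log2 fold change -0.002 ± 0.08, adjusted p = 0.99). The 15 annotated NPM1 pseudogenes with a row together held counts equal to 1.92% of those of NPM1. How reads that match both were assigned was not stated. The call of NCL ended without replicates 2 or 3 of si-NC+M5 or replicate 1 of si-eIF4E+M5, leaving 1 of 3 chaperones called instead of 2, with adjusted p up to 0.072.

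UtpA is the complex that meets the start of the pre-rRNA first. All 6 of its genes had a log2 fold change below 0 (median -0.21) and 2 were called. WDR43 (chr2:28894643-28948222, plus strand) was at 80.0, 85.1 and 80.6 CPM in the controls and at 59.3, 64.8 and 63.1 CPM after knockdown, with no overlap (-0.39 ± 0.06, adjusted p = 0.0022). UTP4, the best expressed of the complex with a mean FPKM of 16.8, was at 106, 113 and 103 CPM and at 87.7, 92.3 and 89.8 CPM, also without overlap (-0.26 ± 0.06, adjusted p = 0.016). HEATR1, its largest subunit, was at -0.25 ± 0.09 and not called (adjusted p = 0.11). Its groups overlapped, with control sample 1 at 83.6 CPM and knockdown sample 3 at 88.2 CPM. NOL11 showed the smallest change, at 63.7, 59.5 and 64.8 CPM against 58.9, 66.0 and 59.4 CPM (-0.03 ± 0.07, adjusted p = 0.84). UTP15 and WDR75 were at -0.17 and -0.15 without a call. Without replicate 2 of si-NC+M5 (adjusted p = 0.072) or replicate 1 of si-eIF4E+M5 (adjusted p = 0.067) UTP4 was no longer called, which left 1 UtpA gene.

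UtpB, the next complex to join, showed the deepest median of the 8 steps (-0.40), with 4 of 6 genes called lower. WDR3 (chr1:117929720-117966542, plus strand) was at 49.7, 55.1 and 50.6 CPM in the controls and at 33.7, 32.7 and 33.8 CPM in the knockdown samples. The knockdown samples lay close together and far below the controls, at 64.5% of their level (95% CI 58.3 to 71.3%, log2 fold change -0.63 ± 0.07, adjusted p = 3.5e-04). WDR36, another WD-repeat subunit, was at 43.0, 49.7 and 47.0 CPM and at 32.1, 33.0 and 33.7 CPM (-0.50 ± 0.07, adjusted p = 0.0016). PWP2 (chr21:44107290-44131181, plus strand) was at 18.0, 16.8 and 15.4 CPM in the controls and at 12.1, 8.37 and 12.3 CPM after knockdown. Its groups did not overlap, but it had the lowest mean FPKM of the 60 genes (1.93) and a wide error (-0.62 ± 0.15, adjusted p = 0.019). UTP18, the best expressed UtpB gene, was at 45.1, 47.4 and 44.3 CPM and at 35.5, 39.1 and 35.9 CPM (-0.31 ± 0.07, adjusted p = 0.012). TBL3 moved least, from 68.1, 74.3 and 73.7 CPM to 63.4, 63.0 and 70.3 CPM with overlap (-0.14 ± 0.07, adjusted p = 0.21), and UTP6 was at -0.19 (adjusted p = 0.076). Without replicate 2 of si-NC+M5 the count in UtpB was 2, since PWP2 (adjusted p = 0.066) and UTP18 (adjusted p = 0.062) were lost. PWP2 also lost its call without replicate 1 of si-NC+M5 and UTP18 without replicate 1 of si-eIF4E+M5.

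Of the 13 other processome factors, 4 were called lower, and the median log2 fold change was -0.17. UTP3, a scaffold of the processome with the highest mean FPKM of this step (23.2), was at 54.3, 55.7 and 54.8 CPM in the controls and at 43.0, 42.9 and 43.6 CPM after knockdown. Both groups were tight and did not overlap (-0.35 ± 0.06, adjusted p = 0.0028). RRP9, the protein specific to the U3 snoRNP, was at 30.1, 29.6 and 25.97 CPM and at 21.5, 23.4 and 21.9 CPM (-0.36 ± 0.08, adjusted p = 0.016). NOL6 and UTP25 fell by 0.35 and 0.27 (adjusted p = 0.012 and 0.014). The GTPase BMS1 showed the smallest change, at 97.6, 101 and 99.3 CPM against 89.0, 101 and 98.9 CPM (-0.04 ± 0.06, adjusted p = 0.71). The 12 annotated BMS1 pseudogenes with a row held counts equal to 9.79% of those of BMS1. RCL1, which in yeast BMS1 brings to the particle, was at -0.17, and the large scaffold UTP20 at -0.26 ± 0.13, neither of them called. UTP14A, WDR46, NOL10, NOP14 and NOC4L lay between -0.20 and -0.07 without a call. UTP23, which in yeast is needed to release a snoRNA from the precursor, was the member with the highest fold change. It was at 21.3, 21.2 and 21.1 CPM in the controls and at 24.8, 23.1 and 21.8 CPM in the knockdown samples, where every value lay above the controls, but the difference was not called (0.13 ± 0.08, adjusted p = 0.33). Without replicate 2 of si-NC+M5 or replicate 1 of si-eIF4E+M5 the count in this step was 1, with RRP9, NOL6 and UTP25 at adjusted p between 0.055 and 0.068. RRP9 also lost its call without replicate 1 of si-NC+M5 or replicate 3 of si-eIF4E+M5.

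The 6 factors of pre-40S maturation and export fell into called genes and genes with almost no change. TSR1, a GTPase-like protein of the pre-40S particle (chr17:2322503-2337507, minus strand), was at 169, 172 and 164 CPM in the controls and at 119, 133 and 129 CPM after knockdown, without overlap (-0.40 ± 0.06, adjusted p = 0.0020). RRP12, needed for export of the particle, was at 58.6, 62.9 and 55.2 CPM and at 40.5, 47.2 and 49.4 CPM, also without overlap (-0.37 ± 0.08, adjusted p = 0.016). NOB1, the nuclease that makes the final cut at the 3′ end of 18S rRNA, had the highest mean FPKM of this step (61.3) and was at 147, 155 and 141 CPM against 109, 135 and 122 CPM (-0.28 ± 0.08, adjusted p = 0.043). The kinase RIOK1 was at 30.04, 28.8 and 27.9 CPM and at 26.4, 31.3 and 28.98 CPM, with the groups overlapping (log2 fold change rounded to 0.00, SE 0.08, adjusted p = 1.00). The kinase RIOK2 and the export factor LTV1 were at -0.04 and -0.03. Leaving out any library but replicate 2 of si-eIF4E+M5 ended the call of NOB1 (adjusted p up to 0.16), and RRP12 was lost without replicate 2 of si-NC+M5 or replicate 1 of si-eIF4E+M5 (adjusted p up to 0.080), so that 1 gene, TSR1, stayed called in those fits.

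Among the 12 factors that act on the pre-60S particle in the nucleolus, 6 were called lower, every log2 fold change was below 0 and the median was -0.22. NOP16 (chr5:176383938-176388975, minus strand), a nucleolar protein of early pre-60S particles, was at 56.8, 57.0 and 54.2 CPM in the controls and at 37.8, 43.8 and 37.7 CPM after knockdown. The groups were far apart, at 70.99% of the control level (95% CI 63.4 to 79.5%, -0.49 ± 0.07, adjusted p = 0.0020). NOP2, an rRNA methyltransferase (chr12:6556863-6568691, minus strand), was at 88.6, 94.0 and 84.9 CPM and at 66.4, 67.4 and 66.9 CPM (-0.41 ± 0.06, adjusted p = 0.0014). RRS1, which in yeast brings the 5S rRNA to the particle, had the highest mean FPKM of this step (55.2) and was at 108, 118 and 110 CPM against 83.0, 92.6 and 84.9 CPM (-0.37 ± 0.06, adjusted p = 0.0043). PES1, BOP1 and WDR12 form the PeBoW complex, which is needed to mature 28S and 5.8S rRNA. WDR12 and BOP1 fell by 0.35 and 0.28 (adjusted p = 0.0093 and 0.016). PES1 was at 125, 130 and 123 CPM in the controls and at 95.3, 123 and 105 CPM in the knockdown samples, with knockdown sample 2 just under the lowest control, and was not called (-0.22 ± 0.09, adjusted p = 0.12). RRP1B fell by 0.21 (adjusted p = 0.036), and NOC3L, NOC2L, BRIX1 and EBNA1BP2 lay between -0.21 and -0.15 without a call. PWP1 moved least, from 78.1, 80.6 and 77.7 CPM to 75.8, 78.9 and 74.3 CPM (-0.05 ± 0.05, adjusted p = 0.64). BOP1 lost its call without replicates 1 or 2 of si-NC+M5 or replicate 3 of si-eIF4E+M5 (adjusted p up to 0.072), and RRP1B in every leave-one-out fit but that without replicate 1 of si-NC+M5 (adjusted p up to 0.14). The count in this step was 4 to 6 in these fits.

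The late pre-60S factors had the smallest median change (-0.14), and 2 of 6 were called. MRTO4, which holds the place of the stalk protein P0 on the pre-60S particle, was at 52.1, 57.8 and 53.7 CPM in the controls and at 41.5, 44.7 and 42.7 CPM after knockdown, with no overlap (-0.34 ± 0.07, adjusted p = 0.0063). GNL3, the nucleolar GTPase nucleostemin, was at 55.9, 50.5 and 52.0 CPM and at 41.8, 46.3 and 39.0 CPM (-0.32 ± 0.08, adjusted p = 0.020). NMD3, the adaptor that links the pre-60S particle to the export receptor, had the highest mean FPKM of this step (21.2) and was at 112, 114 and 107 CPM against 99.5, 111 and 105 CPM, with overlap (-0.08 ± 0.06, adjusted p = 0.47). The related GTPase GNL2 was at 51.3, 52.5 and 47.5 CPM and at 49.7, 50.5 and 48.4 CPM (-0.03 ± 0.06, adjusted p = 0.84). WDR74 was at -0.21 and LAS1L, part of the machinery that cuts the second internal spacer, at -0.04, neither of them called. GNL3 lost its call without replicates 1 or 3 of si-NC+M5 or replicates 1 or 3 of si-eIF4E+M5 (adjusted p of 0.050 to 0.073), which left MRTO4 alone.

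Level did not separate the genes that fell from those that did not. Mean FPKM ran from 1.93 for PWP2 to 224 for NPM1, and over the 60 genes it had a Spearman correlation of -0.009 with the log2 fold change, given as a description over genes that share the same libraries. Calls were made at both ends of the range.

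**Figure D4:**
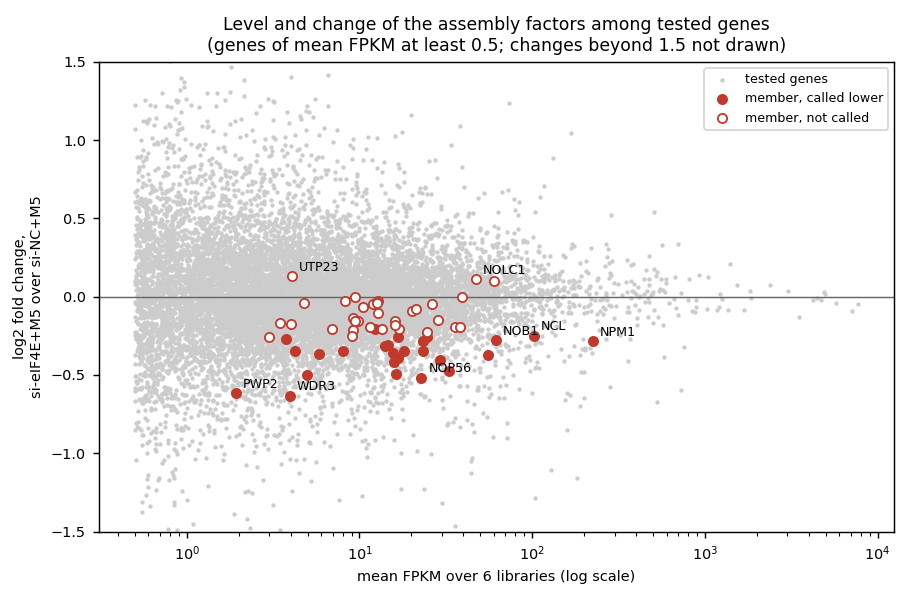
Mean FPKM over the 6 samples (x axis, log scale) against the log2 fold change (y axis) for tested genes at or above a mean FPKM of 0.5 in grey and for the 60 assembly factors in red, filled where called lower. Most red points lie below 0 along the range of levels from PWP2 at 1.93 to NPM1 at 224. The farthest falls, those of WDR3 and PWP2, lie at a mean FPKM of 3.95 and 1.93, and UTP23, NOP10 and NOLC1 lie above 0.

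Several of the 60 genes also carry snoRNAs, the guide RNAs of the snoRNPs, inside their own gene. In GENCODE v29, 8 of the 60 (13.3%) contain an annotated snoRNA on their own strand, against 1.53% of 13362 tested protein-coding genes. They are NOP56, NOP58, DKC1, NCL, NOL11, WDR43, TSR1 and GNL3, and 7 of these 8 were called lower (NOL11 was not), against 19 of the other 52. Among all 205 tested protein-coding genes with a snoRNA, 35 (17.1%) were called lower and 11 higher, with a median log2 fold change of -0.04. No test of these shares was made. How reads that fall inside introns were counted was not stated.

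Annotated overlaps bear on how well single genes can be told apart. Genes of small RNAs, among them the snoRNAs above, were left out of this search. Of the 60 genes, 26 overlap no other annotated gene of the remaining kinds, and 13 of these were called lower. Some of the 26, such as NOP56 and DKC1, do contain snoRNAs. A gene on the opposite strand overlaps 32 members, of which 11 were called lower, and the use of strand in counting was not stated. Another gene on the same strand overlaps UTP4, HEATR1, RRP12, LTV1, NOP2, RRS1 and WDR74, so reads of these 7 could have been split or left out. Pseudogenes of NOC2L held counts equal to 16.3% of those of NOC2L, and those of NCL, NHP2, NMD3 and NOP56 less than 0.04% each.

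Other genes of ribosome assembly were also called lower and not higher. Of 86 tested assembly genes outside the 60, taken from a list made with earlier results of these data known, 37 (43.0%) were called lower and 0 higher, beside 8.40% and 7.44% of all tested genes, and 77 had a log2 fold change below 0 (median -0.23). At an unadjusted p under 0.05 in edgeR 2 were higher (TSR2 at 0.20 and NOP53 at 0.13), and DESeq2 called 0 higher. Among 28 other small-subunit factors 13 were called lower. The largest called falls were those of PNO1 and BYSL, which act late in 40S maturation. PNO1 went from 41.2, 39.6 and 39.5 CPM to 28.5, 27.0 and 27.7 CPM (-0.53 ± 0.06, adjusted p = 7.0e-04). BYSL went from 42.6, 43.4 and 42.0 CPM to 28.7, 30.4 and 29.8 CPM (-0.52 ± 0.06, adjusted p = 6.8e-04). Among 39 other large-subunit factors 19 were called lower, with MAK16 at -0.67 ± 0.12 (adjusted p = 0.0043) and RSL24D1 at -0.47 ± 0.08 (adjusted p = 0.0036). MAK16 went from 20.9, 20.6 and 18.0 CPM to 12.6, 10.8 and 14.1 CPM, and RSL24D1 from 106, 115 and 108 CPM to 72.7, 88.7 and 76.3 CPM, in both cases without overlap. Of 19 rRNA-processing nucleases and their cofactors 5 were called lower, among them the exosome subunits EXOSC4 (-0.35 ± 0.07, adjusted p = 0.0082) and DIS3 (-0.31 ± 0.07, adjusted p = 0.012). Without replicate 2 of si-NC+M5 the 3 counts were 8, 10 and 1, where 4.67% of all tested genes were called lower. In that fit the 1 of 19 nucleases was close to the share of all tested genes. The large-subunit count was 11 without replicate 3 of si-NC+M5 or replicate 1 of si-eIF4E+M5. The nuclease count was 3 or fewer in all leave-one-out fits but that without replicate 2 of si-eIF4E+M5, where it was 4. Over the leave-one-out fits, 4.67 to 6.37% of all tested genes were called lower. The factor SLX9, also on the list, was not analysed here.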

How the data were processed

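RNA sequencing values came from 1 deposited table of 6 HaCaT libraries. It holds whole-number counts per gene and FPKM values, both made by the authors. Per the submitters' processing notes, reads were handled with cutadapt 1.9 and FastQC and the build was GRCh38. Which aligner, counting tool, annotation and strand setting were used is not given in the sources used here.

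Deposited counts were tested with edgeR 4.0.16 in R 4.3.3 (filterByExpr with a minimum count of 10, TMM scaling, quasi-likelihood fit, two-sided test). P-values were adjusted by Benjamini-Hochberg over 18022 genes, and genes under 0.05 were called. TMM factors ran from 0.98 to 1.04, the common biological coefficient of variation was 17.4%, and a floor of 3 counts equals 0.040 to 0.043 CPM. Intervals are 95% intervals of the fit. With 3 samples against 3, an exact permutation test cannot go below 0.1, so none is reported. The fitting code was tested on simulated counts. The deposited FPKM values gave levels between genes and the alternative fits with limma 3.58.1 on log2(FPKM + 1) and log2(FPKM + 0.1); DESeq2 1.42.0, other scalings, no filter, a robust dispersion, a threshold of 0.01, the replicate block and each library left out were other alternatives. Gene positions, snoRNAs and overlaps came from GENCODE v29, and promoters from RefSeq (GRCh38.p14). Python 3.11.15, pandas 2.3.3 and matplotlib 3.10.9 were used for tables and figures.

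The members, steps, lists and tests were chosen with earlier results of these data known. Genes given in full are EIF4E, MYC and, in each step, the 2 called genes with the largest change, the gene with the highest mean FPKM and the gene with the smallest change. In each list of other pathway genes they are the 2 called genes with the largest change. HEATR1, WDR36, UTP23 and PES1 are given in full because of their values.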

Additional observations from a re-analysis of the deposited data

How the results depend on the processing

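The direction of the member median held under all 17 alternatives (log2 fold change -0.26 to -0.16), 50 of the 60 genes stayed below 0 in each of them, and 0 members were called higher in any. The threshold of 0.01 reuses the main fit, so its fold changes could not differ. The robust dispersion gave the same median as the main fit (-0.21). Of the 26 called genes, 12 were called lower in every alternative and 13 in every fit that left out 1 library. Members called lower numbered 14 to 29 with 1 library left out, 15 with limma on log2(FPKM + 1) without a filter on low values, 12 at an adjusted p under 0.01 and 19 without a filter on low counts. Of all tested genes, 4.67 to 6.37%, 2.70%, 4.03% and 3.49% were called lower in the same order. Genes called in the whole table numbered 2853, against 1598 to 2283 with 1 library left out, 1818 without a filter, 1673 with limma without a filter and 1300 at 0.01.

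Without a filter on low counts, chaperones, pre-40S factors and late pre-60S factors had 1 call each, other large-subunit factors 12 and nucleases 3. With limma without a filter, chaperones, other processome factors, pre-40S and late pre-60S factors had 1 call each, other large-subunit factors 9 and nucleases 3, and with limma at either pseudocount the other large-subunit factors had 11. At 0.01 the counts were 0 for chaperones, 1 for UtpA, 2 for UtpB, 1 for other processome, pre-40S and late pre-60S factors each, 7 and 9 for other small- and large-subunit factors and 1 for nucleases. Nuclease counts were 3 under upper-quartile scaling or library totals and 8 with DESeq2 or a robust dispersion. Of all genes in these fits, 7.02%, 7.11%, 5.69% and 9.01% were called lower in the same order. With limma at pseudocounts of 1 and 0.1 and a filter, the shares were 6.10% and 6.17%. With 1 library left out the ranges were 1 to 2 for chaperones, 1 to 3 for UtpA, 2 to 5 for UtpB, 1 to 4 for other processome factors, 1 to 3 for pre-40S and for late pre-60S factors, 8 to 12 and 10 to 18 for other small- and large-subunit factors, and 1 to 4 for nucleases. By construction, fewer samples enter the fits with 1 library left out, and more genes enter those without a filter. The other scalings, the robust dispersion, limma with a filter and the threshold of 0.01 used all samples and the same 18022 genes. Causes of the shifts were not tested.

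The sign of 7 uncalled genes near 0 turned in at least 1 alternative. NPM3 was at 0.0077 with DESeq2 size factors, 0.030 under upper-quartile scaling, 0.028 with library totals, 0.014 in the DESeq2 test and 0.026 with limma at either pseudocount. RIOK1 was at 0.0091, 0.030, 0.028 and 0.016 in the same order, and at 0.024 and 0.026 with limma at pseudocounts of 1 and 0.1. NOL11 was at 0.0030 under upper-quartile scaling and 0.0011 with library totals, and GNL2 at 0.0048 and 0.0041 there and at 0.0035 and 0.0040 with limma. With 1 library left out the ranges were -0.078 to 0.016 for BMS1, -0.062 to 0.0025 for GNL2, -0.083 to 0.0080 for NOL11, -0.072 to 0.055 for NPM3 and -0.062 to 0.068 for RIOK1. LAS1L reached 0.00036 without replicate 1 of si-eIF4E+M5, and LTV1 0.018 without its replicate 3.

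With the replicate number as a block, 30 members were called lower (26 kept, 4 gained), beside 10.1% of all tested genes, and 3414 genes were called in all. For samples of the same number, the deviations of log2 CPM from the mean of their own group correlated at 0.024, 0.031 and 0.031. These values were under the 0.1 set for a pairing, although the deviations of each sample correlated best with those of its own number. Deviations cancel out within a group, so the values for different pairs depend on each other. No depth limit was met: all 60 genes had enough counts to be tested.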
